A study of Mus musculus with 6 samples.

Results

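Mitochondrial solute carriers were described in peri-infarct neurons of mice given vehicle or the lipid 15-HETrE. The members are all genes of the deposited table whose symbol is Slc25a followed by a number, 47 of 24419 genes. Of these, 40 had a mean of at least 1 CPM (reads scaled to library size, with a size factor for each library) over the 6 libraries and entered the test. The other 7, Slc25a2, Slc25a21, Slc25a31, Slc25a41, Slc25a43, Slc25a48 and Slc25a54, lay under it.

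The 6 libraries came from male wild-type C57BL/6N mice whose middle cerebral artery was occluded for 60 min. All animals had the stroke, and there was no group without it. Vehicle or 600 ng of 15-HETrE, a hydroxylated fatty acid derived from dihomo-gamma-linolenic acid, was injected intravenously in 150 µL of phosphate-buffered saline at 24, 48 and 72 h, and cortex was taken on day 4. Cells positive for Thy1 and negative for ACSA2, CD31, CD45 and O4 were sorted, a gate that enriches neurons and depletes the astrocytes, vessel cells, leukocytes and O4-bearing cells of the cortex. There were 3 libraries per group. The age of the mice is not known here, nor whether a library held cells of a single animal or of a pool, so the spread behind the p-values is that of these libraries and may be technical.

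Carriers of this family sit mostly in the inner mitochondrial membrane, which is otherwise closed to charged metabolites. They exchange ADP for ATP, bring in phosphate and pyrimidine nucleotides, and pass citrate, malate, aspartate, glutamate, carnitine esters, cofactors and iron. In brain, the ADP/ATP and phosphate carriers supply substrates of the ATP synthase, and the aspartate/glutamate carrier with the oxoglutarate/malate carrier forms the shuttle that moves reducing equivalents of NADH into mitochondria.

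The libraries held 5405245 to 22558400 reads, the 2 libraries named combined being the shallowest. They are called vehicle 1, vehicle 2, vehicle combined, 15-HETrE 1, 15-HETrE unnumbered and 15-HETrE combined after their column names. Values are listed in that order throughout. Vehicle combined stood apart. Over the 40 members, its median absolute log2 difference was 0.96 from vehicle 1 and 0.92 from vehicle 2, while vehicle 1 and vehicle 2 differed by 0.26. It was the lowest or the highest library for 22 of the 40 members, 55.0%, against 50.5% of all 14523 genes tested. 15-HETrE combined was so for 21 members, 52.5%, against 42.2% of all genes. Oligodendrocyte markers, although O4 was gated out, summed to 15556 to 32179 CPM over 8 genes, and the 10 pan-neuronal markers to 1930 to 6069 CPM, so the label of neurons does not describe all RNA in these libraries. In bulk samples such as these, fewer cells of a type and less RNA per cell cannot be told apart.

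No Slc25a transcript passed the test between the groups. Of the 40 members, 0 were called higher and 0 lower after 15-HETrE (limma, threshold 0.05 on the Benjamini-Hochberg adjusted p over 14523 genes), as for 0.0% of all genes, and the smallest adjusted p was 0.394, for Slc25a5. At an unadjusted p under 0.05 stood 1 member on the higher side, Slc25a23, against a background of 4.27% of all genes, and 1 on the lower, Slc25a5, against 5.23%. Together they made 5.0% of the members against 9.5% of all genes. edgeR on the recovered reads called 0 members, with 0.0% of all genes called, and had 3 (Slc25a5, Slc25a23 and Slc25a24) at an unadjusted p under 0.05, where 8.48% of all genes stood. DESeq2 on those reads called 0 members, with 1.14% of all genes called, and had the same 3 at an unadjusted p under 0.05, where 10.7% of all genes stood. A limma fit with a weight for each library called 1 member higher (Slc25a23) and 2 lower (Slc25a5 and Slc25a24), and with it 7.29% of all genes higher and 9.41% lower. The groups did not overlap for 5 members, 12.5%, against 15.2% of all genes. These were Slc25a42 on the higher side, against a background of 6.84%, and Slc25a3, Slc25a5, Slc25a20 and Slc25a28 on the lower, against 8.32%. On the log2(CPM + 1) scale, on which changes of low genes appear smaller, 19 members lay above 0 and 21 below, with a median difference of -0.05 (15-HETrE minus vehicle) beside 0.02 over all genes. Slc25a34, among those above 0, entered the test only through its value in 15-HETrE combined. The shares of the members past these marks are thus near or under those of all genes. The 95% interval of the difference was 1.03 to 4.39 wide on that scale, with a median width of 2.39, and it held 0 for 38 of the 40 members.

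**Figure D1:**
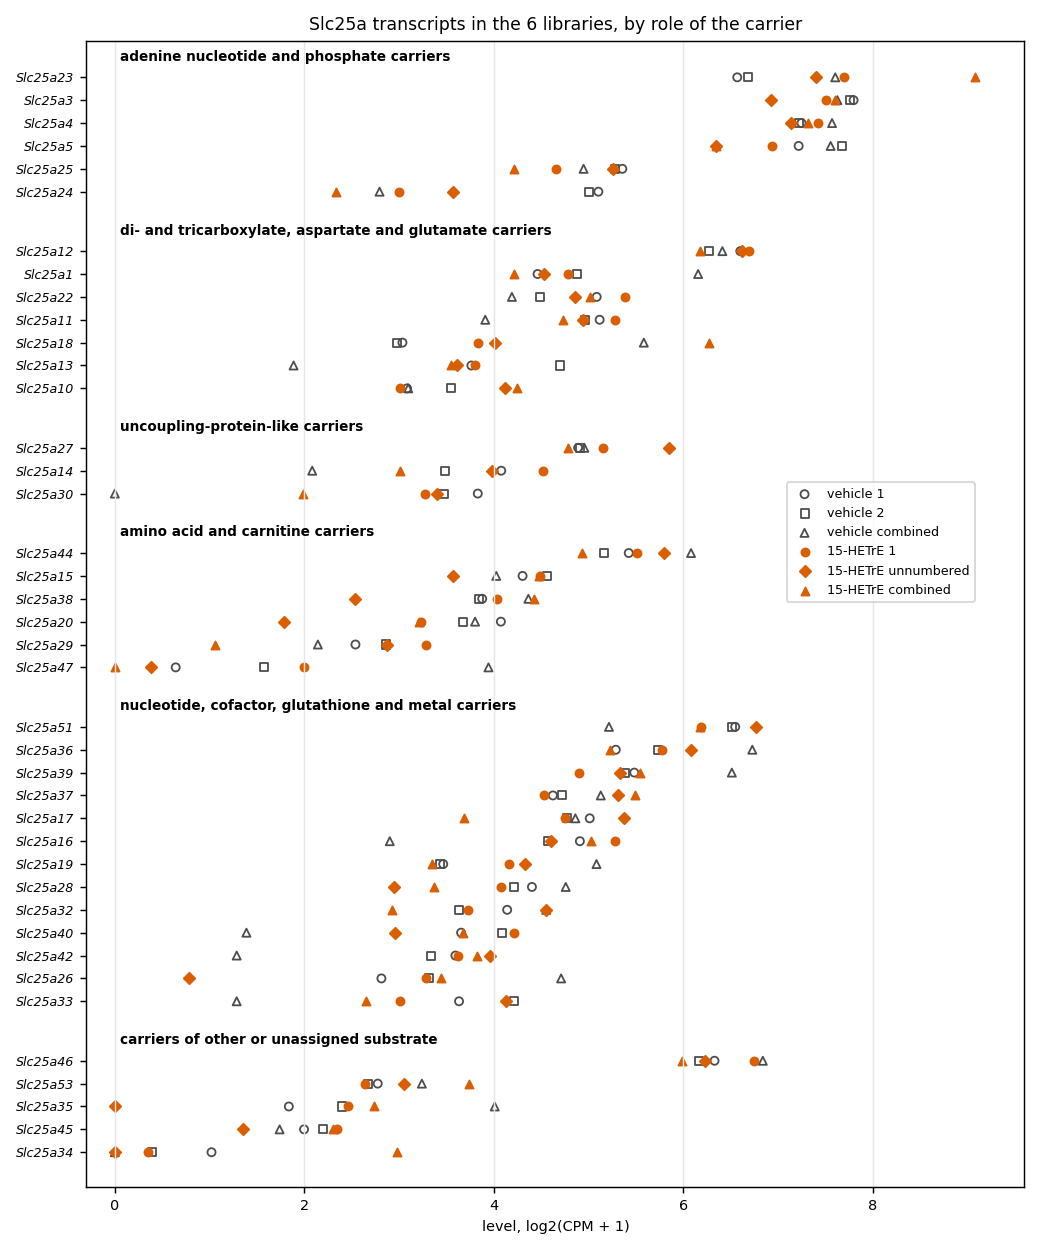
Level of the 40 members kept, log2(CPM + 1) on the horizontal axis, in each of the 6 libraries, grouped by the role of the carrier and ordered by mean CPM within a role. Open grey symbols are vehicle and filled orange symbols 15-HETrE; vehicle combined (open triangle) lies apart from the other vehicle libraries for many members, among them Slc25a30, at 0 CPM there.

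In all, the 47 carriers summed to 1491, 1512 and 1761 CPM in the vehicle libraries and to 1571, 1423 and 1762 CPM in the 15-HETrE libraries, so the groups overlapped. These sums rest on 9793 to 34512 reads a library. Per kilobase of the principal transcript (GENCODE M21), the phosphate carrier Slc25a3 was the most abundant, at a mean of 116.6 CPM per kb over the 6 libraries (SD 22.5), followed by Slc25a5 at 110.3 (SD 42.2), Slc25a4 at 82.9 (SD 9.28) and Slc25a23 at 64.6 (SD 49.0). The ranges of these 4 over the libraries overlapped. Next came Slc25a39 at 28.5 CPM per kb (SD 12.8), Slc25a46 at 19.3 (SD 4.72) and Slc25a1 at 18.6 (SD 11.8). The order depends on the length used: over all annotated exons of a gene, Slc25a5 ranked 1, Slc25a4 ranked 2 and Slc25a3 ranked 4. Members under the limit included Slc25a31, the testis form of the ADP/ATP carrier, at most 0.119 CPM in a library, and Slc25a41, at most 0.0597 CPM.

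Of the 8 carriers of adenine nucleotides and phosphate 6 were tested, 1 above 0 and 5 below, with a median log2 difference of -0.43 and none past the test. The ADP/ATP carriers are antiporters that export ATP made in the matrix for cytosolic ADP. Slc25a4 encodes the form known from heart, muscle and brain, and Slc25a5 a form found in many tissues and abundant in dividing cells. Slc25a5 (chromosome X, 36795651 to 36798807, GRCm38) was found at 148, 203 and 187 CPM under vehicle, compared to 122, 80.4 and 80.0 CPM under 15-HETrE. Every 15-HETrE library lay under every vehicle library. The means were 179 ± 28.6 and 94.0 ± 24.0 CPM (SD, n = 3 per group), a log2 difference of -0.94 (SE 0.27, 95% interval -1.53 to -0.35, limma adjusted p 0.394). It was -0.51 among vehicle 1, vehicle 2 and 15-HETrE 1, whose column names share a first prefix, and -1.21 between the 2 combined libraries (the combined pair). Slc25a5 has a pseudogene in the annotation, Slc25a5-ps, and how the authors counted reads that match several places is not known here.

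Slc25a4 (chromosome 8, 46206797 to 46211284) gave 151, 149 and 189 CPM with vehicle, set against 171, 139.5 and 159 CPM with 15-HETrE. Its groups overlapped, and the spread over all 6 libraries was the narrowest of the 4 abundant carriers relative to its level. The means were 163 ± 22.7 and 156 ± 15.8 CPM (SD, n = 3 per group), with a log2 difference of -0.05 (95% interval -0.57 to 0.46, limma adjusted p 0.953). The log2 ratio of Slc25a4 over Slc25a5, a value within each library, was 0.03, -0.45 and 0.02 in vehicle and 0.49, 0.79 and 0.98 in 15-HETrE libraries. The ratio did not overlap between groups and was higher by 0.89 in 15-HETrE (two-sided exact permutation of the 6 libraries, p = 0.1, the smallest p this design allows, adjusted p = 0.5 over 5 pairs). Of the other 4 pairs, 0 lay apart between groups. Beside Slc25a5, the summed markers of dividing cells, 6 genes of which all 6 lay below 0, ranged over 373 to 513 CPM after vehicle and 93.1 to 146 CPM in 15-HETrE libraries, also without overlap, with Cdk1 at 0 in both combined libraries. The sum of the 7 endothelial markers lay lower without overlap, at 112 to 210.4 CPM after vehicle and 44.9 to 97.6 CPM after 15-HETrE. Of these genes 5 lay below 0, but each gene taken singly overlapped between groups. Cdh5 made up most of the sum in vehicle 1 and vehicle 2, and its groups overlapped too. Of the 7 markers of pericytes and smooth muscle 6 lay below 0, with sums of 639 to 1088 and 227 to 668 CPM, which overlapped. Taken singly, Pdgfrb lay lower without overlap, at 349, 324 and 111 CPM after vehicle against 23.2, 86.4 and 78.4 CPM after 15-HETrE. Rgs5, Kcnj8 and Abcc9 also lay lower without overlap, as did 8.32% of all genes. All 7 fibroblast markers lay below 0 as well. The part of these lists in the difference of Slc25a5 was not tested.

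**Figure D2:**
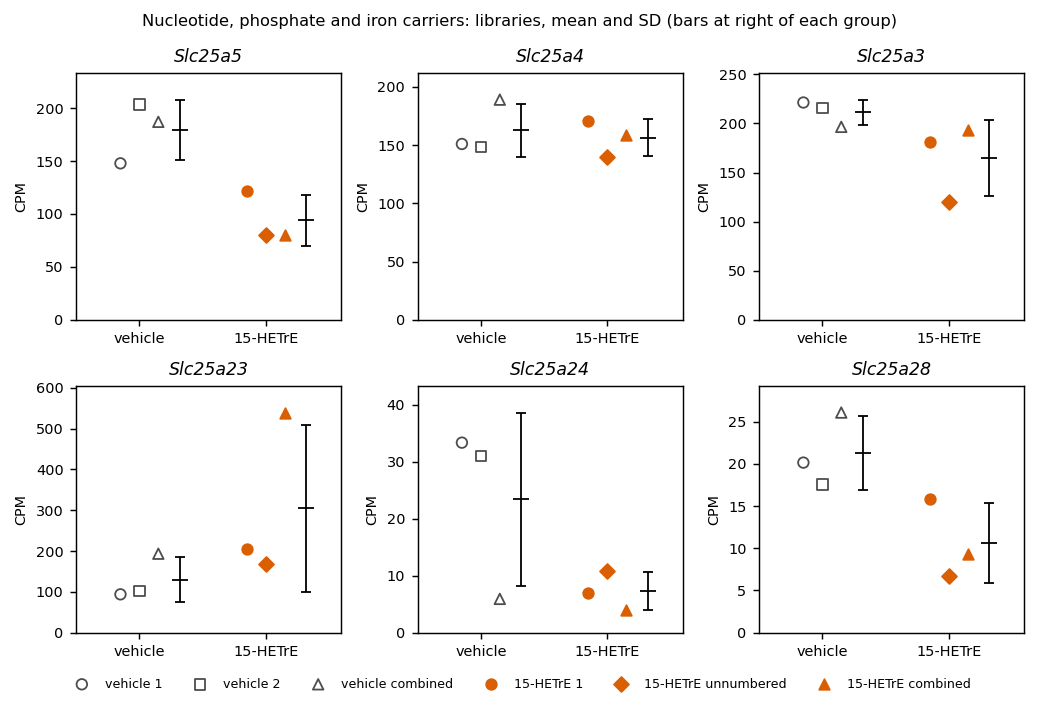
CPM of 6 carriers in each library on a linear axis from 0, with the group mean and SD (n = 3) at the right of each group. Slc25a5, Slc25a3 and Slc25a28 do not overlap between groups, while the lone high 15-HETrE library of Slc25a23 (539 CPM) and the lone low vehicle library of Slc25a24 (5.93 CPM) are the combined ones.

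Slc25a4 with Slc25a5 and Slc25a23 with Slc25a24 are pairs of relatives whose differences between groups had unlike sizes or signs. None of these differences passed the test between the groups, and a part of upstream sequence in them was not tested. Their sequences upstream of the RefSeq start are shown so that each pair can be compared: 250 bases each, 5′ to 3′ on the strand of the gene, from RefSeq on GRCm38.p6. They are chr8:46211063-46211312 (minus strand) for Slc25a4, chrX:36795347-36795596 (plus) for Slc25a5, chr17:57059864-57060113 (minus, 1 of 2 starts in the table) for Slc25a23 and chr3:109122899-109123148 (plus) for Slc25a24. The RefSeq start of Slc25a4 lies inside the gene as GENCODE M21 draws it, so most of its window, with both capitalised boxes, falls within the gene span given above. Capitals mark matches on either strand to a GC box (GGGCGG) or a CCAAT box (CCAAT).
Slc25a4: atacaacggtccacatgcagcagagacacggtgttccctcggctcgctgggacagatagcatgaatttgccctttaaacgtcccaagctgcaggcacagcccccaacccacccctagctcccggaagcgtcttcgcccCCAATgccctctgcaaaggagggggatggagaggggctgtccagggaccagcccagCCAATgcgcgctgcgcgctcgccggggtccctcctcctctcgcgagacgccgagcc
Slc25a5: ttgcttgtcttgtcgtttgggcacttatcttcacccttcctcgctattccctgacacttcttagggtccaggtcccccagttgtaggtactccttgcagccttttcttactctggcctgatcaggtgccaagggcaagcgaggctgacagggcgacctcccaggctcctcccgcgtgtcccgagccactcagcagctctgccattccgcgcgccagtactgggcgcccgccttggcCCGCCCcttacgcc
Slc25a23: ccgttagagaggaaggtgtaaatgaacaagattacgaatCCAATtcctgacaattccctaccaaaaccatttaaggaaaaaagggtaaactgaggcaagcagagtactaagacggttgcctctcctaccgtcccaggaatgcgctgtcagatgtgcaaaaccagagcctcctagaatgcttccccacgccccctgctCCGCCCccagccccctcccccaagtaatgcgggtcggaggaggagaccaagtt
Slc25a24: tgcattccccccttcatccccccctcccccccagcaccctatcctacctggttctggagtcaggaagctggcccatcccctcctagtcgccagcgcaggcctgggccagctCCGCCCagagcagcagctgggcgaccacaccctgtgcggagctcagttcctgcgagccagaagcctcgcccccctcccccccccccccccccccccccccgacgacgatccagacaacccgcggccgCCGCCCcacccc

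Slc25a4 held 2 CCAAT boxes and 0 GC boxes, and Slc25a5 held 1 GC box and 0 CCAAT boxes. Slc25a23 held 1 of each and Slc25a24 held 2 GC boxes and 0 CCAAT boxes; 0 matches overlapped another. The 4 windows held 0 matches to the letters TATAA or to the NRF-1 element, which is named for a factor of nuclear genes for mitochondria. Windows were found for 36 of the 47 members. GC boxes stood in 24 of them, 66.7%, against 42.7% of 17492 protein-coding genes, and CCAAT boxes in 16, 44.4%, against 36.3%. TATAA stood in 2, 5.56%, against 21.3%, and the NRF-1 element in 2 (Slc25a3 and Slc25a31), 5.56%, against 2.79%. A match is a description of letters, not of a bound site.

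Slc25a3 carries phosphate into the matrix. It measured 221, 216 and 197 CPM after vehicle against 181, 120.4 and 193 CPM after 15-HETrE, without overlap, but vehicle combined and 15-HETrE combined differed little. The log2 difference was -0.38 (SE 0.25, limma adjusted p 0.655), -0.03 within the combined pair and -0.17 without 15-HETrE unnumbered.

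The ATP-Mg/phosphate carriers are calcium-regulated and adjust the adenine nucleotide pool of the matrix. Slc25a23 was found at 94.0, 102 and 194 CPM under vehicle, compared to 206, 168 and 539 CPM under 15-HETrE. 15-HETrE combined was more than all others, and vehicle combined lay above 15-HETrE unnumbered, so the groups overlapped. Its log2 difference of 1.11 (SE 0.44, 95% interval 0.13 to 2.08, limma adjusted p 0.489) was the largest of the 40 members on the higher side. It was 1.07 for the first prefix, 1.47 for the combined pair, and 0.60 without 15-HETrE combined.

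Slc25a24 was chosen for description after its values were seen, as the member with the largest difference on the lower side. It gave 33.4, 31.03 and 5.93 CPM with vehicle, set against 7.01, 10.9 and 4.05 CPM with 15-HETrE. Vehicle 1 and vehicle 2 were high and the other 4 low, and vehicle combined lay within the range of 15-HETrE. The log2 difference was -1.33 (SE 0.69, limma adjusted p 0.588), -2.05 within the first prefix and -0.46 for the combined pair. It was -2.08 without vehicle combined. The 7 fibroblast markers, of which all 7 lay below 0, summed to 9117, 7157 and 1449 CPM after vehicle but to 1161, 1743 and 1261 CPM in 15-HETrE libraries. Among them the collagen gene Col1a1 measured 2811, 1718 and 11.3 CPM after vehicle against 19.3, 421 and 2.84 CPM after 15-HETrE. Pdgfra, which also marks oligodendrocyte precursors, measured 879, 1006 and 1382 CPM after vehicle against 1035, 428 and 1228 CPM after 15-HETrE. Pdgfra made up most of the fibroblast sum in vehicle combined, 15-HETrE 1 and 15-HETrE combined. The part of fibroblasts or precursors in the values of Slc25a24 was not tested. Slc25a25, the third carrier of this kind, had a log2 difference of -0.48 (limma adjusted p 0.704) with overlapping groups.

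**Figure D3:**
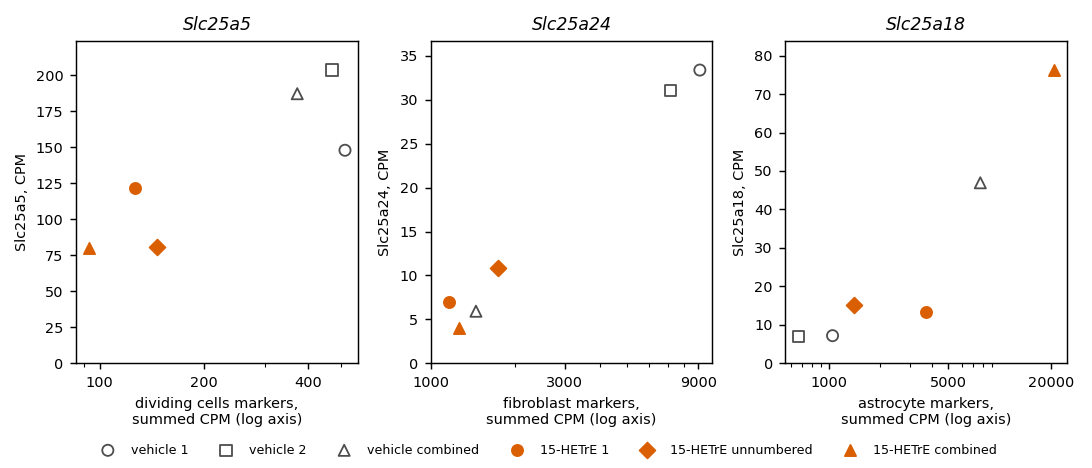
CPM of Slc25a5, Slc25a24 and Slc25a18 (vertical, linear from 0) against the summed CPM of dividing cell, fibroblast and astrocyte markers (horizontal, log axis) in each of the 6 libraries. Slc25a24 exceeds 30 CPM in the 2 vehicle libraries richest in fibroblast markers, and Slc25a18 is highest in the 2 combined libraries, which are richest in astrocyte markers. The fibroblast sum is mostly Pdgfra in vehicle combined, 15-HETrE 1 and 15-HETrE combined.

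Carriers of dicarboxylates, citrate, aspartate and glutamate numbered 8, of which 7 were tested. Of these, 6 lay above 0 and 1 below, with a median log2 difference of 0.32; 0 passed, and 0 lacked overlap. The groups overlapped for each carrier of the NADH shuttle. Slc25a12, the aspartate/glutamate carrier of neurons and muscle, was found at 96.1, 76.1 and 84.2 CPM under vehicle, compared to 102, 97.3 and 71.2 CPM under 15-HETrE. The groups overlapped, and the 95% interval of the log2 difference, -0.51 to 0.64, was among the narrower ones. Slc25a13, the form best known from liver, gave 12.6, 25.0 and 2.70 CPM with vehicle, set against 12.9, 11.2 and 10.7 CPM with 15-HETrE, so that the vehicle libraries held both the highest and the lowest value. Slc25a11, the oxoglutarate/malate carrier, measured 33.7, 30.2 and 14.0 CPM after vehicle against 37.7, 29.8 and 25.5 CPM after 15-HETrE, with vehicle combined the low one.

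Slc25a1 exports citrate for lipid synthesis. It was found at 21.0, 28.3 and 70.3 CPM under vehicle, compared to 26.5, 22.1 and 17.6 CPM under 15-HETrE. The high value was that of vehicle combined, and the log2 difference was 0.12 within the first prefix and -1.94 for the combined pair, against -0.66 in all libraries and -0.16 without vehicle combined. The glutamate carriers Slc25a22 and Slc25a18 had log2 differences of 0.49 and 0.84 (limma adjusted p 0.699 and 0.764). That of Slc25a18 was 1.70 without vehicle combined, 0.06 without 15-HETrE combined, 0.43 without vehicle 1, 0.40 without vehicle 2 and 1.28 without 15-HETrE 1. Slc25a18, a glutamate carrier abundant in astrocytes, gave 7.20, 6.88 and 46.9 CPM with vehicle, set against 13.2, 15.2 and 76.2 CPM with 15-HETrE. Both combined libraries were high, whichever the group. The 8 astrocyte markers, of which 7 lay above 0, summed to 1055, 665 and 7687 CPM after vehicle but to 3710, 1414 and 20749 CPM in 15-HETrE libraries, highest in the same 2 libraries, and 0 of the 8 were at 0 in any library. The 10 pan-neuronal markers, of which 9 lay above 0, summed to 3280, 1930 and 2609 CPM after vehicle but to 6069, 3197 and 5716 CPM in 15-HETrE libraries, a narrow overlap, and 0 of the 10 were at 0 in any library. The part of either list in Slc25a18 or in Slc25a23 was not tested.

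The 3 relatives of the uncoupling proteins all lay above 0, with a median of 0.46, and 0 passed. Slc25a27, a brain form, measured 28.7, 29.1 and 30.0 CPM after vehicle against 34.5, 56.6 and 26.5 CPM after 15-HETrE. The vehicle libraries were close together, and 15-HETrE libraries lay on both sides of them. Slc25a14, also known from brain, was found at 15.9, 10.2 and 3.24 CPM under vehicle, compared to 21.9, 14.7 and 7.03 CPM under 15-HETrE. Slc25a30 gave 13.2, 10.1 and 0 CPM with vehicle, set against 8.70, 9.55 and 2.97 CPM with 15-HETrE. In vehicle combined it had 0 reads, which allows up to 0.540 CPM (3 counts, counting error only). Both combined libraries were the low ones for Slc25a14 and Slc25a30.

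All 6 tested carriers of amino acids and carnitine lay below 0, with a median of -0.25, but 1 of them, Slc25a20, had groups without overlap and 0 passed. Within the first prefix their median was 0.20 and within the combined pair -0.84. Slc25a20 exchanges carnitine for acylcarnitine, the step that brings long fatty acids to oxidation. It measured 15.8, 11.7 and 12.9 CPM after vehicle against 8.42, 2.45 and 8.24 CPM after 15-HETrE, a log2 difference of -1.11 (SE 0.58, limma adjusted p 0.592). The difference was -0.63 without 15-HETrE unnumbered, which held the low value. Slc25a44, a carrier of branched-chain amino acids, was found at 41.9, 34.9 and 66.7 CPM under vehicle, compared to 44.7, 54.7 and 29.6 CPM under 15-HETrE. Slc25a38, which carries glycine for heme synthesis, gave 13.7, 13.3 and 19.6 CPM with vehicle, set against 15.3, 4.77 and 20.5 CPM with 15-HETrE. Both overlapped between groups.

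Of the 13 carriers of nucleotides, cofactors, glutathione and metals, all tested, 6 lay above 0 and 7 below, with a median of -0.04. The mitoferrins bring iron to the matrix, Slc25a37 mainly in erythroid cells and Slc25a28 in other tissues. Slc25a28 measured 20.1, 17.5 and 26.1 CPM after vehicle against 15.8, 6.68 and 9.33 CPM after 15-HETrE, without overlap, though 15-HETrE 1 was close to vehicle 2. The log2 difference was -0.997 (SE 0.48, limma adjusted p 0.554), and -0.23 within the first prefix. Slc25a37 was found at 23.7, 25.4 and 33.99 CPM under vehicle, compared to 22.1, 38.6 and 44.1 CPM under 15-HETrE and overlapped. The log2 ratio of Slc25a37 over Slc25a28 overlapped as well (exact permutation p = 0.2, adjusted p = 0.5 over 5 pairs).

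Slc25a42, a carrier of coenzyme A, gave 11.1, 9.13 and 1.44 CPM with vehicle, set against 11.3, 14.5 and 13.1 CPM with 15-HETrE. The groups did not overlap, but vehicle 1 and 15-HETrE 1 were close, and the value of vehicle combined rested on 8 reads. The log2 difference of 1.06 (SE 0.68, limma adjusted p 0.644) was 0.33 without that library. Slc25a39, which imports glutathione, measured 43.7, 40.7 and 90.3 CPM after vehicle against 28.9, 39.2 and 45.5 CPM after 15-HETrE. Slc25a51, the carrier of NAD, was found at 92.6, 90.1 and 36.1 CPM under vehicle, compared to 71.9, 108 and 71.1 CPM under 15-HETrE. Slc25a17, a peroxisomal member, gave 31.3, 26.4 and 28.1 CPM with vehicle, set against 25.9, 40.6 and 11.9 CPM with 15-HETrE. All 3 overlapped between groups, and for Slc25a39 and Slc25a51 vehicle combined held the extreme value, high for the first and low for the second.

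Among 8 listed carriers of other or unassigned substrate, 7 were in the table and 5 were tested, 3 above 0 and 2 below. Slc25a34, among those above 0, reached a mean of 1 CPM only through 15-HETrE combined. It gave 1.03, 0.315 and 0 CPM with vehicle, set against 0.273, 0 and 6.89 CPM with 15-HETrE, so its side follows from that library. Slc25a46, which sits in the outer membrane and bears on mitochondrial fission, measured 79.4, 71.0 and 113 CPM after vehicle against 106, 74.1 and 62.3 CPM after 15-HETrE. Slc25a35 was found at 2.57, 4.27 and 15.1 CPM under vehicle, compared to 4.51, 0 and 5.68 CPM under 15-HETrE, and 31.3% of its annotated exon bases are shared with Rangrf on the opposite strand; as it is not known here whether counting used strand, reads of the pair cannot be told apart. Slc25a53, on chromosome X, gave 5.84, 5.35 and 8.45 CPM with vehicle, set against 5.24, 7.28 and 12.3 CPM with 15-HETrE. All 3 overlapped between groups.

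**Figure D4:**
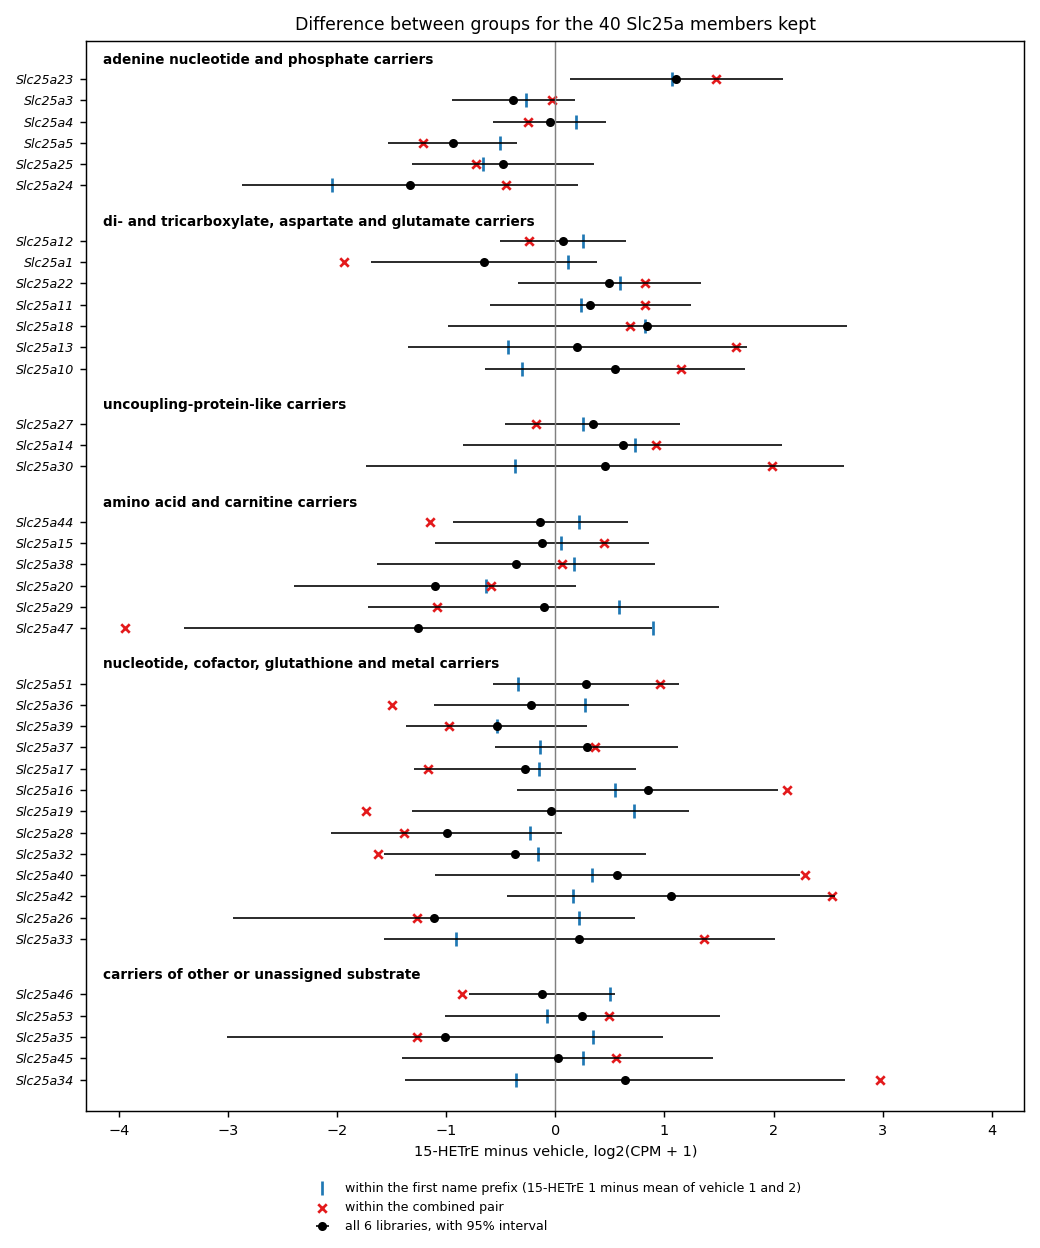
Difference between groups, 15-HETrE minus vehicle on the log2(CPM + 1) scale, for the 40 members kept: black points with 95% intervals (limma) from all 6 libraries, blue bars within the first name prefix and red crosses within the combined pair. The interval leaves out 0 for Slc25a23 and Slc25a5, and the blue and red marks lie on opposite sides of 0 for 20 members.

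These differences varied between the first prefix and the combined pair. The column names of the combined pair share the word combined and carry no such prefix, so a common batch is not known for them. The first prefix and the combined pair gave the same sign for 20 of the 40 members, 50.0%, against 57.2% of all genes. Differences within the combined pair were wider, with a median absolute size of 1.116 for the members and 0.73 for all genes, against 0.34 and 0.41 within the first prefix. The prefix of 15-HETrE unnumbered held a single library and gave no difference. A batch term for the prefix was also fitted, with the combined pair set as a class of its own. With the prefix as a batch term, 0 members passed (limma) against 0.0551% of all genes, and the smallest adjusted p was 0.112, for Slc25a23.

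The other genes of mitochondrial transport stood close to the background too. Of 54 listed genes in 10 lists, 53 were in the table and 51 were tested: 27 lay above 0 and 24 below, with a median of 0.01, and 0 passed in either direction (limma). At an unadjusted p under 0.05 stood Sfxn5, a sideroflexin, on the higher side and Gpd1, the cytosolic glycerol-3-phosphate dehydrogenase, on the lower. Gpd1 measured 351, 609 and 292 CPM after vehicle against 179, 339.9 and 83.4 CPM after 15-HETrE. The groups overlapped.

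Of 5 family members under other names, 4 were tested, 1 above 0 and 3 below. Ucp2, an uncoupling protein, lay lower without overlap, at 7.25, 8.19 and 11.9 CPM after vehicle against 5.01, 4.297 and 5.81 CPM after 15-HETrE (log2 difference -0.72, limma adjusted p 0.699). The 2 most abundant were Mtch1, at 86.3 ± 34.7 CPM for vehicle and 89.3 ± 8.20 CPM for 15-HETrE (SD, n = 3), and Mtch2, an insertase of the outer membrane, at 89.2 ± 19.0 and 69.4 ± 11.4 CPM. The porin Vdac1, the main pore of the outer membrane, had 145 ± 57.3 and 138 ± 33.0 CPM, and Vdac2 had 112 ± 37.8 and 113 ± 40.3 CPM. The 2 subunits of the pyruvate carrier, Mpc1 and Mpc2, had log2 differences of 0.75 and 0.25 (limma adjusted p 0.669 and 0.873). The groups overlapped for Mtch1, Mtch2, Vdac1, Vdac2, Mpc1 and Mpc2.

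Enzymes that work with the carriers gave like values. Mdh1, the cytosolic malate dehydrogenase of the NADH shuttle, had 198 ± 46.0 CPM for vehicle and 239 ± 112 CPM for 15-HETrE (SD, n = 3). Acaca, which starts fatty acid synthesis from exported citrate, had 172 ± 17.4 and 163 ± 3.77 CPM. In the carnitine shuttle Cpt1a had 65.3 ± 49.2 and 60.3 ± 21.7 CPM and Cpt1c had 39.0 ± 7.56 and 46.5 ± 14.3 CPM. Among import factors, the receptors Tomm20 and Tomm70a, which take carrier proteins from the cytosol, had 146 ± 43.0 and 153 ± 27.0 CPM for vehicle, and 185 ± 5.02 and 139 ± 13.0 CPM for 15-HETrE. Of the calcium uniporter genes, Micu3 had a log2 difference of 0.34, and of the ABC transporters Abcb10 had -0.89 (limma adjusted p 0.757 and 0.592).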

How the data were processed

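RNA from sorted cells was sequenced in 6 libraries, 3 per group. The submitters' processing notes name mm10 as the genome and HISAT2, Trimmomatic, edgeR and featureCounts as tools, with versions, settings and annotation not known here. The deposited values are a signal the authors scaled as CPM with a size factor for each library: columns sum to 960982 to 1080354. The value of 1 read was taken as the smallest value above 0 in a column, and 100.0% of values were whole multiples of it (tolerance 1e-04 reads); depth is the sum of these reads. Column names gave each library's group; 2 vehicle columns and 1 15-HETrE column carry a number of the sample titles. What combined means is not known here.

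The 14523 genes whose mean reached 1 CPM were fitted as log2(CPM + 1) by limma 3.58.1 under R 4.3.3, the group being the only term, with a variance trend. Tests were two-sided and p-values adjusted by Benjamini-Hochberg over all of these genes. A count model (edgeR 4.0.16, DESeq2 1.42.0) on the recovered reads was an alternative, as were pseudocounts of 0.5, 0.1 and 5, other filters and scalings, library weights, leaving out libraries and the name prefix as a batch term. Full values are given for the 3 members of highest level per kb in each role, those with an unadjusted p under 0.05 or without overlap, the NADH shuttle and 2 pairs of close relatives; of partner lists, values are given for members among the 2 most abundant, and some of these are not reported here. Slc25a22, Slc25a24 and Slc25a25 lie outside this rule and were added after their values were seen. The scripts were tested on simulated counts. Positions and lengths are from GENCODE M21 (GRCm38), matched for 47 of 47 members. The members and lists were chosen with earlier results of these data known.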

Additional observations from a re-analysis of the deposited data

How the results depend on the processing

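With a library weight in the fit, 1 member was called higher (Slc25a23, log2 difference 1.13) and 2 lower (Slc25a5, -0.73, and Slc25a24, -1.95), with adjusted p of 0.00685, 0.0288 and 0.00361 (limma); 1 partner gene, Sfxn5, was called higher and 2, Gpd1 and Cpt2, lower. In that fit 7.29% and 9.41% of all genes were called higher and lower, and vehicle combined had the lowest weight, 0.206. Under the other 19 alternatives 0 members and 0 partner genes passed, and the cause was not tested. The median log2 difference of the members ranged from -0.15 (without 15-HETrE 1, and also without vehicle combined) to 0.0501 (without 15-HETrE combined) when single libraries were left out, and was 0.0572 without both combined libraries and 0.0538 with the prefix as a batch term. Single members changed sign in 0 to 16 of 40 cases per alternative, 16 without both combined libraries, and 18 of 40 had 1 sign under all 20. The ratio of Slc25a4 over Slc25a5 stayed between 0.73 and 1.02 higher in 15-HETrE. No paired analysis was possible because the columns of both groups share only 1 replicate number. The name prefix was used as a batch term, with the combined libraries, which carry no prefix, set as a class of their own. Of the members, 7 had means under 1 CPM. Depth limits how finely low values are resolved: 1 read was worth 0.0450 CPM in vehicle 2 and 0.180 CPM in vehicle combined.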
